A study of Mus musculus with 24 samples.

Results

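Messenger RNA of 10 chemokine genes was followed in mouse liver: *Cxcl1*, *Cxcl2*, *Cxcl9*, *Cxcl10*, *Cxcl12*, *Cxcl16*, *Ccl2*, *Ccl6*, *Ccl7* and *Ccl9*. They were taken by symbol from a fixed list, with no measured value in the rule, and are 10 of the 24411 genes counted. The list was drawn up with earlier results of these data known. All 10 had reads in at least 1 library. Whole-liver RNA was sequenced in 24 libraries from male mice about 2.5 months old that carried floxed alleles of *E2f7* and *E2f8*, which encode atypical E2F repressors, and that had been fasted for about 16 h.

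The LKO mice (18 libraries with their controls) were predominantly FVB on a mixed background, carried the R26R mTmG reporter and deleted both genes through Alb-*Cre*, which acts in the hepatoblast lineage and so in hepatocytes and bile duct cells from before birth. Control littermates had the floxed alleles and no Cre. Each genotype was sequenced as 4 single mice at 0 h, fasted and without drug, and as 1 pool of 3 mice at each of 12, 24, 48, 72 and 96 h after 300 mg/kg acetaminophen (APAP), so the spread between mice after APAP was not measured. The HKO mice lost both genes in hepatocytes as adults, through AAV8-TBG-Cre given at 2 months of age, and their controls received AAV8-TBG-Null. The AAV8-TBG-Null and HKO groups hold 3 single mice each, at 0 h only. The study also used the R26R mTmG reporter in the HKO model and its controls, and does not state their background separately. The comparisons ask how chemokine mRNA moves through injury and recovery from a drug overdose, and whether it differs in livers without *E2f7* and *E2f8*. The study reports that LKO livers were rich in diploid hepatocytes and were less injured than Control livers by the same dose of APAP. In LKO against Control after APAP, loss of the 2 genes, ploidy and the extent of injury cannot be told apart.

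Chemokines are small secreted proteins that bind heparan sulfate and G protein-coupled receptors and steer leukocytes along gradients. In the liver they are made by hepatocytes, Kupffer cells, endothelial cells and stellate cells, and by the leukocytes that arrive. An APAP overdose kills centrilobular hepatocytes, after which neutrophils and then CCR2-positive monocytes enter the necrotic areas, and the monocyte-derived macrophages help to clear them. *Cxcl1* and *Cxcl2* encode ELR-motif ligands of CXCR2 that draw neutrophils. *Cxcl9* and *Cxcl10* encode interferon-inducible ligands of CXCR3, a receptor of T and NK cells. *Cxcl12* encodes the homeostatic ligand of CXCR4, and *Cxcl16* a membrane-anchored ligand of CXCR6. *Ccl2* and *Ccl7* encode ligands of CCR2, and *Ccl6* and *Ccl9* encode CCR1 ligands typical of myeloid cells.

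Of the 10 genes, 8 lie in neighbouring pairs of like function (GRCm38, GENCODE vM21). *Cxcl1* (chr5:90891241-90893115) and *Cxcl2* (chr5:90903871-90905938) are 10755 bases apart on the plus strand. *Cxcl9* (chr5:92321347-92328079) and *Cxcl10* (chr5:92346638-92348889) are 18558 bases apart on the minus strand. *Ccl2* (chr11:82035571-82037453) and *Ccl7* (chr11:82045712-82047525) are 8258 bases apart on the plus strand, and *Ccl9* (chr11:83572919-83578636) and *Ccl6* (chr11:83587882-83593087) are 9245 bases apart on the minus strand. *Cxcl12* lies at chr6:117168535-117181367 on the plus strand and *Cxcl16* at chr11:70453983-70459984 on the minus strand. Counts cover all exons of a gene. The exons of *Cxcl16* share 18.3% of their length with those of *Zmynd15*, and the exons of *Cxcl10* share 5.91% with those of *Art3*; the other 8 share none.

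Upstream sequence is shown for *Cxcl1*, *Cxcl2*, *Cxcl10* and *Ccl6*, which rose at 12 h after APAP and for which the RefSeq promoter table has an entry (7 of the 10 genes; *Cxcl16*, *Ccl2* and *Ccl7* have none). The 170 bases run from 220 to 51 bases before the RefSeq start (GRCm38.p6), 5′ to 3′ on the gene's own strand, and capitals mark matches to the 10-letter NF-kB consensus, searched on both strands with overlapping matches joined.
Cxcl1, chr5:90891025-90891194, plus strand: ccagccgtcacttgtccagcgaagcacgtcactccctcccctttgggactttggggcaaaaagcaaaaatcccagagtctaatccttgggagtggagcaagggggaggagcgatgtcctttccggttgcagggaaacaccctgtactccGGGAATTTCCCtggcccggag
Cxcl2, chr5:90903679-90903848, plus strand: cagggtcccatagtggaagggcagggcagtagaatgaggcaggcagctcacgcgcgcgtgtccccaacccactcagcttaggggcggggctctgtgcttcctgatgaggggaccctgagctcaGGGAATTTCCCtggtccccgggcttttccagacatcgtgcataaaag
Cxcl10, chr5:92348940-92349109, minus strand: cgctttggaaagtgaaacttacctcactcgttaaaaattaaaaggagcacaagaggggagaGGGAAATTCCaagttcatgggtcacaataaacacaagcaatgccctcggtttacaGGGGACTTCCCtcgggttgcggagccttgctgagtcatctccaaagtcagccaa
Ccl6, chr11:83593138-83593307, minus strand: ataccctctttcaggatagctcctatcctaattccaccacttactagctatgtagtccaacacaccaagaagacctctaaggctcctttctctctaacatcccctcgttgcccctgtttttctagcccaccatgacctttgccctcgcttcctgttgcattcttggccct
The *Cxcl1* and *Cxcl2* stretches each hold 1 match, which starts 71 and 97 bases upstream, and the surrounding 14 bases (gggaatttccctgg) are the longest run that the 2 promoters share. *Cxcl10* holds 2 matches, which start 159 and 104 bases upstream, a TGANTCA motif of the AP-1 type 74 bases upstream and an interferon-response motif (GAAA, any 2 bases, GAAA) 213 bases upstream. Within the 250 bases upstream, *Ccl9* has an NF-kB match that starts 35 bases upstream and a TGANTCA match 53 bases upstream, and *Cxcl9*, *Cxcl12* and *Ccl6* have neither. Among 32851 promoter entries of the same length, 7.25% held the NF-kB consensus, 6.75% TGANTCA and 2.98% the interferon-response motif, each searched on both strands. A match describes letters only and is no evidence that a factor was bound.

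Reads on genes numbered 12665686 to 19499897 per library, so that 3 counts, taken as the lowest readable level, correspond to 0.143 to 0.254 CPM (the read count relative to library size, scaled by TMM over the 24 libraries). The libraries were hepatocyte-rich, with a summed level of 8 hepatocyte markers, among them *Alb*, of 55700 to 133000 CPM. After APAP 4, 4, 3 and 2 of these 8 markers fell and 0, 1, 0 and 0 rose at 12, 24, 48 and 72 h, among them *Cyp2e1*, the main APAP-activating enzyme (log2 fold change −2.11 at 24 h and −2.61 at 48 h), and their part in the chemokine results was not tested. *E2f8* was at 16.2 ± 3.13 CPM in Control mice and 25.1 ± 6.95 CPM in mice labelled LKO (SD, n = 4), and at 19.9 ± 5.91 in AAV8-TBG-Null mice and 55.9 ± 26.7 in mice labelled HKO (SD, n = 3); the count includes exons outside the deleted part and does not check the genotype, so groups are given by their labels. These are bulk samples, in which fewer cells of a type and less RNA per cell cannot be told apart.

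Before APAP the 10 genes covered almost 3 orders of magnitude in level per length. Over the 8 mice of the LKO cohort at 0 h, *Cxcl12* led with 41.2 ± 9.33 CPM per kb of exon (SD, n = 8), followed by *Ccl9* at 20.5 ± 3.26 and *Cxcl1* at 10.3 ± 9.00. *Ccl6* (2.72 ± 1.24), *Cxcl16* (2.32 ± 0.339) and *Cxcl9* (1.71 ± 0.353) came next. *Cxcl10* (0.716 ± 0.268), *Ccl2* (0.481 ± 0.332), *Cxcl2* (0.0595 ± 0.044) and *Ccl7* (0.0439 ± 0.0827) were lowest. The ranges of *Cxcl12* and *Ccl9* did not overlap, whereas *Ccl9* and *Cxcl1*, and each pair of neighbours from *Cxcl1* to *Ccl7* in this order except *Cxcl9* with *Cxcl10* and *Ccl2* with *Cxcl2*, had ranges that met. The highest pool changed the order: *Cxcl1* reached 121 CPM per kb (Control, 24 h), above *Cxcl12* at its highest (47.5; LKO, 72 h) and *Ccl9* at its highest (46.6; LKO, 48 h).

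**Figure D1:**
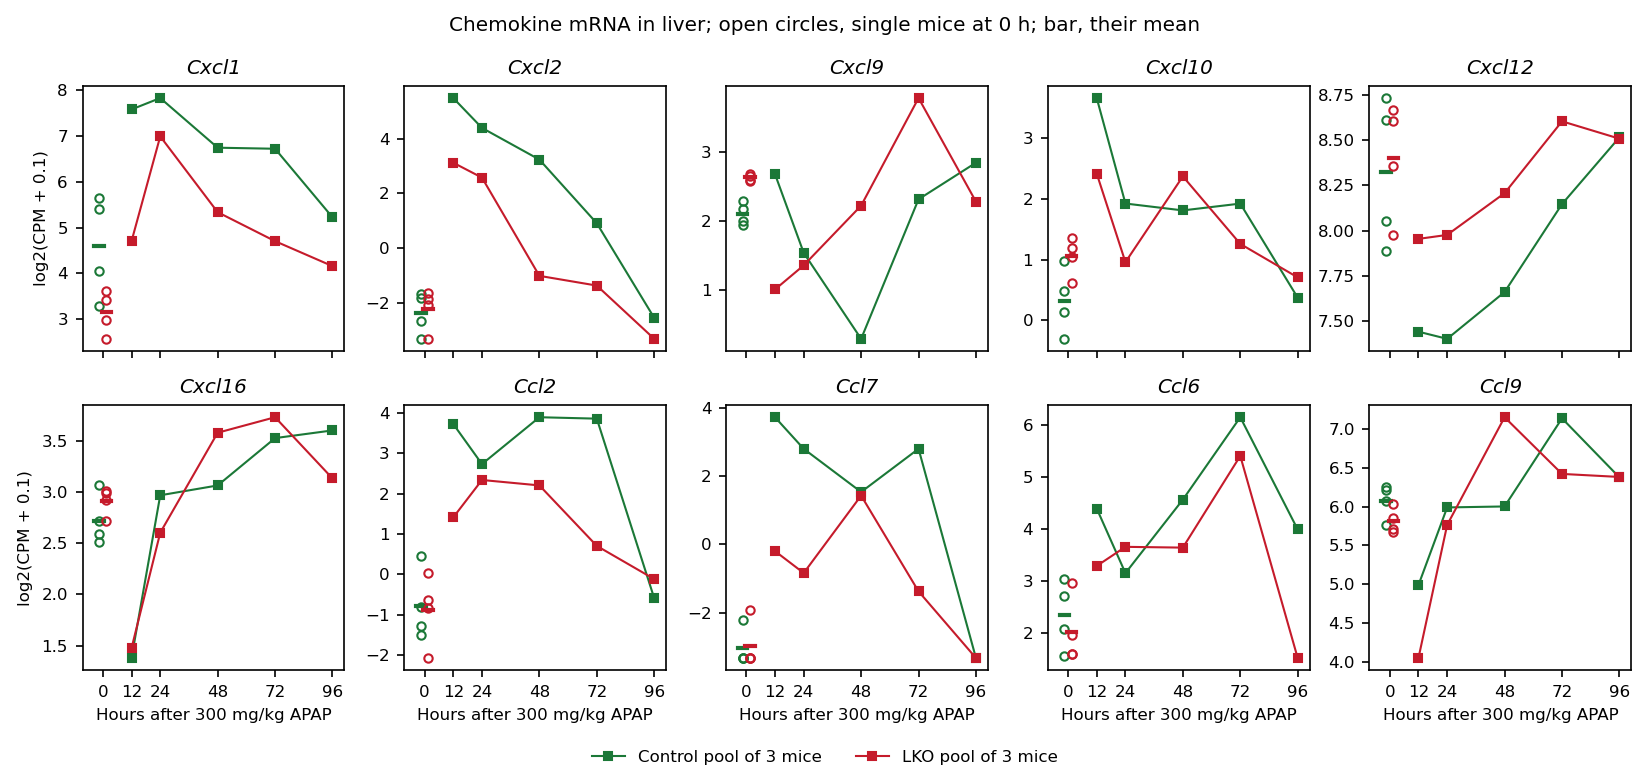
Level of each of the 10 chemokine mRNAs, as log2 of CPM plus 0.1, against hours after 300 mg/kg APAP, in Control (green) and LKO (red) liver. Open circles are the 4 single mice per genotype at 0 h with the mean of their log values as a bar, and squares are pools of 3 mice, 1 per genotype and time. *Cxcl2* was highest at 12 h in both genotypes, *Ccl6* at 72 h in both, and *Ccl7* had no count in either pool at 96 h.

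The neutrophil-attracting genes rose at all 4 times from 12 to 72 h and were not called at 96 h. At 0 h, *Cxcl1* was at 9.74, 49.8, 42.2 and 16.4 CPM in the 4 Control mice and at 7.86, 5.85, 12.2 and 10.6 CPM in the 4 LKO mice. After APAP the Control pools had 191, 227, 107, 105 and 37.3 CPM at 12, 24, 48, 72 and 96 h, and the LKO pools 25.9, 127, 40.3, 26.0 and 17.8 CPM. The Control pools from 12 to 72 h lay above all 8 mice at 0 h, whereas among the LKO pools only the 24 h pool did. In the test of each time point against 0 h, which sets 2 pools against 8 mice with genotype as a covariate, the log2 fold changes of *Cxcl1* for 12, 24, 48 and 72 h were 2.25, 3.44, 2.00 and 1.68 (SE 0.40 to 0.42, adjusted p = 0.000687, 3.26e-05, 0.00369 and 0.0109 by edgeR's quasi-likelihood test). At 96 h it was 0.66 (adjusted p = 0.502), which did not pass. The 12 h and 72 h calls each rested on the Control pool: without it the log2 fold change was 1.41 (adjusted p = 0.0962) and 1.46 (adjusted p = 0.259).

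*Cxcl2* started near the lowest readable level, with 0 to 4 counts in each of the 8 mice (up to 0.218 CPM). The Control pools had 45.0, 21.0, 9.35, 1.78 and 0.0702 CPM at 12, 24, 48, 72 and 96 h, and the LKO pools 8.63, 5.88, 0.395, 0.286 and 0 CPM. So the level was highest at 12 h in both genotypes and lower at each later time. Against the 7 reads in the 4 Control mice, the Control pool at 12 h was 380-fold higher (95% exact counting interval 184 to 949), and against the 9 reads in the 4 LKO mice the LKO pool was 65.8-fold higher (33.7 to 147). At 48 h the ratios were 79.1 (37.6 to 199) in Control and 3.01 (0.952 to 9.08) in LKO; these intervals cover counting error only. By edgeR's quasi-likelihood test the log2 fold changes of *Cxcl2* for 12, 24, 48 and 72 h were 7.46, 6.63, 4.65 and 2.73 (adjusted p = 1.75e-07, 2.12e-06, 8.38e-05 and 0.0168), and these fitted values depend on the prior count. Without the Control pool the 48 h and 72 h values were 2.6 (adjusted p = 0.165) and 2.43 (adjusted p = 0.404).

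The CXCR3 ligands behaved unlike each other. *Cxcl10* was at 0.997, 0.708, 1.87 and 1.29 CPM in Control mice and 1.44, 2.19, 1.96 and 2.46 CPM in LKO mice at 0 h. It reached 12.6 CPM in the Control pool and 5.24 CPM in the LKO pool at 12 h, and then lay between 1.19 and 5.07 CPM in all 8 later pools. It rose at 12 h (log2 fold change 2.49, SE 0.39, adjusted p = 0.000196) and 48 h (1.38, SE 0.40, adjusted p = 0.0262) by edgeR's quasi-likelihood test, and not at 24 h (0.79, adjusted p = 0.181) or 72 h (0.88, adjusted p = 0.164). The 12 h value was 1.59 without the Control pool and 3.11 without the LKO pool, with the call kept, and the 48 h call was lost without either pool (1.65, adjusted p = 0.0989, without the Control pool and 1.05, adjusted p = 0.247, without the LKO pool).

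*Cxcl9* passed the test at no time point. Its Control pools had 6.31, 2.80, 1.12, 4.87 and 7.09 CPM and its LKO pools 1.90, 2.46, 4.57, 13.7 and 4.76 CPM at 12 to 96 h, against 3.75 to 6.33 CPM in the 8 mice. The lowest Control pool was that of 48 h and the highest LKO pool that of 72 h. The log2 fold change against 0 h was −0.20, −0.93, −0.93, 0.79 and 0.24 in the same order of times (adjusted p = 0.761, 0.162, 0.19, 0.205 and 0.834 by edgeR's quasi-likelihood test). When the fit held only the pools of 1 time point and the 0 h mice, *Cxcl9* passed at 24, 48 and 72 h (adjusted p = 0.0103, 0.0414 and 0.0306). Single pools moved its value far: without the Control and without the LKO pool of that time it was −1.71 and 0.63 for 12 h (adjusted p = 0.0537 and 0.332), −0.25 and −2.11 for 48 h (0.846 and 0.0488, the latter called), and 1.31 and 0.04 for 72 h (0.239 and 0.974).

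*Cxcl12* and *Cxcl16* fell early. *Cxcl12* was at 237 to 425 CPM in the 4 Control mice and at 251 to 406 CPM in the 4 LKO mice at 0 h. The Control pools had 174, 169, 202, 283 and 366 CPM and the LKO pools 248, 252, 295, 389 and 364 CPM at 12 to 96 h, so that the Control pools at 12, 24 and 48 h stood below all 8 mice, whereas every LKO pool lay within their range. The gene was lower at 12 h (log2 fold change −0.68, SE 0.24, adjusted p = 0.0362) and 24 h (−0.69, SE 0.24, adjusted p = 0.0401) by edgeR's quasi-likelihood test. Both calls lay close to the threshold: leaving out the Control or the LKO pool of that time, Control mouse 4 or LKO mouse 3 ended either call, as did Control mouse 1 or LKO mouse 4 at 24 h (adjusted p = 0.0508 to 0.272 at 12 h and 0.053 to 0.344 at 24 h). A fit of that time point alone also ended both calls (0.0509 and 0.0565), and library size alone (0.0822) and genes of at least 1 count (0.0509) ended that of 24 h. Across all alternatives its log2 fold change stayed between −0.83 and −0.55 at 12 h and between −0.87 and −0.51 at 24 h.

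*Cxcl16* was at 8.33, 5.60, 5.94 and 6.47 CPM in Control mice and 6.50, 7.49, 7.88 and 7.97 CPM in LKO mice. It fell to 2.50 CPM (Control) and 2.68 CPM (LKO) at 12 h and rose to 11.5 and 13.2 CPM at 72 h, with the 2 genotypes close to each other at both times. The log2 fold change was −1.42 at 12 h (SE 0.25, adjusted p = 0.000492) and 0.81 at 72 h (SE 0.20, adjusted p = 0.0119) by edgeR's quasi-likelihood test. At 48 h it was 0.51 (adjusted p = 0.0976), which passed when counts were scaled by library size alone (0.69, adjusted p = 0.024), and the 72 h call was lost without the Control pool (0.87, adjusted p = 0.128) or the LKO pool (0.74, adjusted p = 0.106), at about the same size.

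The CCR2 ligands *Ccl2* and *Ccl7* rose at all 4 times from 12 to 72 h. *Ccl2* was at 0.469, 1.27, 0.254 and 0.308 CPM in Control mice and 0.137, 0.547, 0.460 and 0.928 CPM in LKO mice at 0 h. The Control pools had 13.2, 6.55, 14.8, 14.4 and 0.562 CPM, and the LKO pools 2.56, 4.96, 4.51, 1.53 and 0.820 CPM, at 12, 24, 48, 72 and 96 h. All 8 pools from 12 to 72 h lay above all 8 mice, and both 96 h pools lay within the range of the mice. The log2 fold changes were 3.54, 3.39, 3.90 and 3.45 at 12, 24, 48 and 72 h (SE 0.56 to 0.58, adjusted p = 0.000262, 0.000532, 0.00018 and 0.000508 by edgeR's quasi-likelihood test). Without the Control pool, the 12 h value was 2.62 (adjusted p = 0.0384) and the 72 h value 1.82 (adjusted p = 0.274), and without the LKO pool the 72 h value was 4.31 (adjusted p = 0.000216).

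*Ccl7* was absent or nearly so at 0 h: 2 reads in 1 of the 4 Control mice, 3 reads in 1 of the 4 LKO mice and 0 in the other 6. The Control pools held 199, 115, 55, 104 and 0 reads (13.1, 6.85, 2.80, 6.85 and 0 CPM) and the LKO pools 13, 9, 46, 6 and 0 reads (0.774, 0.460, 2.59, 0.286 and 0 CPM). The Control level was highest at 12 h and the LKO level at 48 h, where the 2 pools nearly met. Relative to the reads of the 4 mice of its genotype, the Control pool at 12 h was 387-fold higher (95% exact counting interval 106 to 3220) and the LKO pool 17.7-fold higher (4.86 to 96.8). At 48 h the ratios were 82.7 (21.8 to 700.0) and 59.3 (19.1 to 298). *Ccl7* rose at 12, 24, 48 and 72 h by edgeR's quasi-likelihood test (adjusted p = 7.04e-05, 0.000429, 0.000236 and 0.000493). Its fitted log2 fold changes, 6.76, 5.89, 6.69 and 5.73, depend on the prior count and shifted to 7.93, 7.07, 8.04 and 6.89 without LKO mouse 4, which holds the 3 reads. Without the Control pool of that time the values of *Ccl7* were 5.46, 4.80, 8.32 and 4.01 (adjusted p = 0.0204, 0.0549, 0.000347 and 0.252), and without the LKO pool the last 2 were 4.83 and 6.36 (adjusted p = 0.00306 and 0.000633).

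Of the CCR1 ligands, *Ccl6* rose at all 4 times from 12 to 72 h, whereas *Ccl9* fell before it rose. *Ccl6* was at 2.87, 6.45, 8.14 and 4.13 CPM in Control mice and 7.73, 3.83, 2.93 and 2.95 CPM in LKO mice. The Control pools had 20.9, 8.81, 23.5, 70.4 and 15.8 CPM and the LKO pools 9.70, 12.5, 12.4, 42.1 and 2.79 CPM at 12 to 96 h. The 72 h pools were the highest of each genotype, and at 96 h the LKO pool was back below all 8 mice while the Control pool was still above them. The log2 fold change of *Ccl6* grew to 3.49 at 72 h (SE 0.39, adjusted p = 7.15e-06 by edgeR's quasi-likelihood test), after 1.60, 1.24 and 1.82 for 12, 24 and 48 h (adjusted p = 0.00826, 0.041 and 0.00664). The 12 h and 48 h calls were lost without the Control pool, at log2 fold changes of 1.31 and 1.67 (adjusted p = 0.146 and 0.128). The 24 h call lay at the threshold and was lost without the LKO pool (log2 fold change 0.47, adjusted p = 0.655), without any of Control mice 1, 2 and 4 or LKO mice 2, 3 and 4, and without the Control pool at 72 h (adjusted p = 0.0501 to 0.0625).

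*Ccl9* was at 54.2, 74.2, 76.3 and 67.2 CPM in Control mice and 51.1, 57.5, 52.2 and 65.6 CPM in LKO mice. It dropped to 31.7 and 16.5 CPM at 12 h, below all 8 mice, and then reached its maximum at 72 h in the Control pools (141 CPM) and at 48 h in the LKO pools (142 CPM). The log2 fold change was −1.37 at 12 h (SE 0.30, adjusted p = 0.00221), 0.77 at 48 h (SE 0.26, adjusted p = 0.0458) and 0.84 at 72 h (SE 0.25, adjusted p = 0.028) by edgeR's quasi-likelihood test. Leaving out the LKO pool took the 12 h value to −1.01 (adjusted p = 0.0548) and the 48 h value to −0.14 (adjusted p = 0.757); without the Control pool the values were 1.38 at 48 h (adjusted p = 0.00304) and 0.52 at 72 h (adjusted p = 0.53). The 48 h call was also lost without any of 12 other libraries or in a fit of that time point alone.

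Counted together against 0 h, 6 of the 10 genes rose and 3 fell at 12 h, where 31.5% of all 13328 genes tested were called, 17% as higher and 14.5% as lower. At 24 h 5 rose and 1 fell (26.1% of all genes called, 14.1% higher and 12.1% lower). At 48 h 7 rose and none fell (16.7% called, 10% higher and 6.71% lower), and the same numbers held at 72 h (16.8% called, 11% higher and 5.81% lower). At 96 h edgeR called none of the 10 (0.465% of all genes). *Cxcl1*, *Cxcl2*, *Ccl2*, *Ccl6* and *Ccl7* were called as higher at all 4 times from 12 to 72 h. At 96 h, 1 of the 10, *Cxcl16*, had an unadjusted p under 0.05 (0.0171), as did 2112 (15.8%) of all 13328 genes, and DESeq2 called none of the 10 there either. The median log2 fold change of the 10 was 1.92, 1.01, 1.60, 1.28 and 0.32 at 12, 24, 48, 72 and 96 h, beside −0.04 to 0.00 for all genes. The count at 48 h was 4 without the Control pool of that time, and the count at 72 h was 1 (*Ccl6*) without the Control pool of that time. The Control and LKO pools of a time point are set against the same mice in these tests.

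After APAP, both neutrophil-attracting genes were lower in LKO than in Control liver. Over 12 to 96 h, blocked by time (5 pools against 5), *Cxcl1* had a log2 fold change of −1.65 (SE 0.27, adjusted p = 0.0398) and *Cxcl2* of −2.68 (SE 0.37, adjusted p = 0.0237) by edgeR's quasi-likelihood test. Both were lower in the LKO pool at 5 of 5 time points, as were 8.55% of all 13328 genes in the LKO cohort. These 2 of the 10 genes were called, where 0.579% of the 12782 genes tested were called. Across all alternatives the log2 fold change stayed between −1.85 and −1.34 for *Cxcl1* and between −3.08 and −2.22 for *Cxcl2*, while the calls did not. *Cxcl1* was not called without 12, 24, 48 or 72 h (adjusted p = 0.0694, 0.063, 0.101 and 0.105), *Cxcl2* was not called without 12 or 72 h (0.0791 and 0.0515), and neither was called without the time block (0.764 for both).

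By time point, the Control pool held 7.46, 1.80, 2.65, 4.10 and 2.12 times the *Cxcl1* level of the LKO pool at 12, 24, 48, 72 and 96 h, with a prior count of 2 added before the log. For *Cxcl2* the ratios were 5.25, 3.55, 18.4, 4.74 and 1.59, the last from 1 and 0 reads. The *Cxcl1* ratio was smallest at 24 h, when its level was highest in both genotypes.

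**Figure D2:**
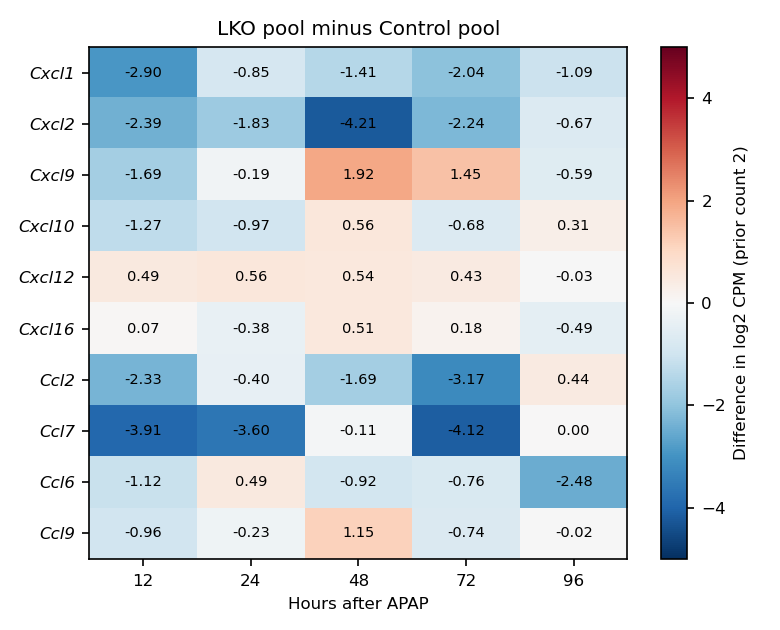
Difference between the LKO pool and the Control pool in log2 CPM (prior count 2), 1 row per chemokine and 1 column per time after APAP; blue is lower and red is higher in LKO. *Cxcl1* and *Cxcl2* are blue at all 5 times, and *Cxcl9* turns from −1.69 at 12 h to 1.92 at 48 h.

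No other gene of the 10 passed this test. *Ccl7* had a log2 fold change of −3.10 (SE 0.71, adjusted p = 0.0862), *Ccl2* of −1.61 (SE 0.45, adjusted p = 0.119) and *Ccl6* of −0.94 (SE 0.33, adjusted p = 0.183) in LKO against Control over 12 to 96 h, by edgeR's quasi-likelihood test. Each had a lower value in the LKO pool at 4 of 5 time points. The exceptions were 24 h for *Ccl6*, and 96 h for *Ccl2* and *Ccl7*, the latter with 0 reads in both pools. *Ccl9* (−0.17, adjusted p = 0.772), *Cxcl10* (−0.46, adjusted p = 0.491), *Cxcl16* (−0.03, adjusted p = 0.962), *Cxcl9* (0.18, adjusted p = 0.885) and *Cxcl12* (0.40, SE 0.16, adjusted p = 0.231) did not pass either. Over the 10 genes the median log2 fold change was −0.70, against −0.01 for all genes. The count of called genes was set by the settings: DESeq2 called 5 (*Cxcl1*, *Cxcl2*, *Ccl2*, *Ccl6* and *Ccl7*, all lower in LKO) of 606 genes in all, and edgeR called 4 (*Cxcl1*, *Cxcl2*, *Ccl2* and *Ccl7*) without 96 h, 1 without 24 h and 0 without 12 h or 72 h.

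At 12 h the LKO pool was at least 2-fold lower than the Control pool for 7 of the 10 genes, namely *Cxcl1*, *Cxcl2*, *Cxcl9*, *Cxcl10*, *Ccl2*, *Ccl6* and *Ccl7*, and at least 2-fold higher for none; of all 13328 genes, 11.8% were that much lower and 8.62% that much higher. In the 24, 48, 72 and 96 h pools 2, 3, 4 and 2 of the 10 were at least 2-fold lower, beside 4.23%, 8.94%, 6.48% and 4.26% of all genes. *Cxcl9* and *Ccl9* in the 48 h pools, and *Cxcl9* in the 72 h pools, were at least 2-fold higher in LKO, and none was in the 24 and 96 h pools; of all genes, 2.92%, 6.75%, 5.93% and 6.05% were, from 24 to 96 h. These are single pools with no replicate, and are described without a test.

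*Cxcl1* also had a lower mean in LKO liver before APAP, which was not called. At 0 h the Control mice had 29.5 ± 19.5 CPM and the LKO mice 9.12 ± 2.82 CPM (SD, n = 4). The log2 fold change was −1.69 (SE 0.46), and the groups overlapped because Control mouse 1 (9.74 CPM) lay below 2 of the LKO mice. The unadjusted p was 0.00402 and the adjusted p = 0.999 by edgeR's quasi-likelihood test, in which no gene of 12426 was called (0%) and 352 (2.83%) had an unadjusted p under 0.05. In fold terms, Control exceeded LKO 3.22-fold at 0 h and 3.15-fold over 12 to 96 h. The test of the difference between these 2 effects gave a log2 value of 0.05 (SE 0.58, adjusted p = 0.988). Set against the mean of its own genotype at 0 h, *Cxcl1* was 8.06-, 9.48-, 4.42-, 4.37- and 1.54-fold higher in the Control pools and 2.94-, 14.3-, 4.52-, 2.89- and 1.97-fold higher in the LKO pools at 12 to 96 h.

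**Figure D3:**
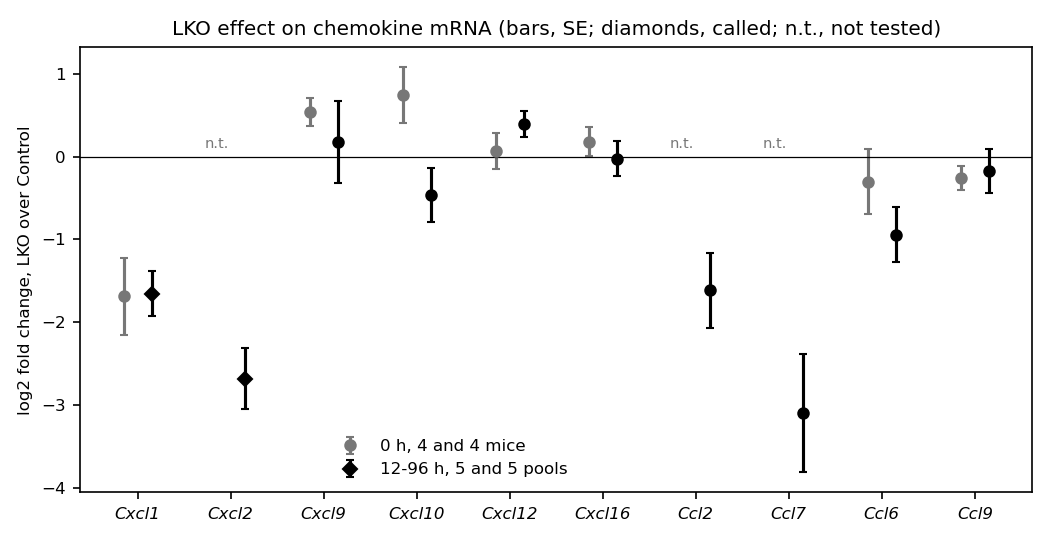
Log2 fold change of LKO over Control at 0 h (grey, 4 and 4 mice) and over 12 to 96 h (black, 5 and 5 pools), with the standard error as bars; diamonds passed the test, and n.t. marks genes with too few counts at 0 h to be tested. *Cxcl1* sits at −1.69 and −1.65 in the 2 comparisons.

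For *Cxcl2*, by contrast, no difference could be read before APAP, with 7 reads in 4 Control mice and 9 in 4 LKO mice. The LKO effect over 12 to 96 h minus that at 0 h was −2.85 on the log2 scale (SE 1.01, unadjusted p = 0.0124, adjusted p = 0.453 by edgeR's quasi-likelihood test), a fitted value that rests on these few reads. *Cxcl10* had a difference of effects of −1.19 (SE 0.48, unadjusted p = 0.0245, adjusted p = 0.476): it was 0.74 higher in LKO mice at 0 h (SE 0.34, unadjusted p = 0.0489, adjusted p = 0.999) and −0.46 over 12 to 96 h. None of the 10 genes, and none of all 13328 genes (0%), passed this test with edgeR; 1285 genes (9.64%), and 2 of the 10, had an unadjusted p under 0.05, and DESeq2 called 39 genes and none of the 10.

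At 0 h, 7 of the 10 genes had enough counts for the LKO test, and none was called by edgeR or by DESeq2, while 3 had an unadjusted p under 0.05 (*Cxcl1*, *Cxcl9* and *Cxcl10*). *Cxcl9* was the only 1 of the 7 whose groups did not overlap, as in 1.73% of all genes tested: the Control mice had 4.40, 3.75, 3.90 and 4.81 CPM and the LKO mice 5.95, 5.91, 6.33 and 6.22 CPM. Its log2 fold change was 0.54 (SE 0.17, unadjusted p = 0.0095, adjusted p = 0.999 by edgeR's quasi-likelihood test). *Ccl9* (−0.26, SE 0.14), *Ccl6* (−0.30, SE 0.40), *Cxcl16* (0.18, SE 0.18) and *Cxcl12* (0.07, SE 0.22) differed by less than 2 standard errors. The median of the 7 was 0.07 (log2), beside 0.00 for all genes.

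In the HKO cohort the *Cxcl1* difference rested on 1 mouse. The 3 AAV8-TBG-Null mice had 3.41, 2.08 and 3.88 CPM and the 3 HKO mice 83.9, 2.56 and 2.38 CPM, so that HKO mouse 1 stood apart and the other 2 lay within the range of the AAV8-TBG-Null mice. The log2 fold change of 3.25 (SE 1.22, adjusted p = 0.305 by edgeR's quasi-likelihood test) became −0.33 (adjusted p = 0.75) without HKO mouse 1. That mouse also had the highest summed level of 11 neutrophil markers in its cohort (11.6 CPM, against 0.636 to 4.61 CPM in the other 5 mice), with *Csf3r*, *S100a9*, *S100a8* and *Retnlg* highest among the markers on average, and the part of these cells in the result was not tested.

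**Figure D4:**
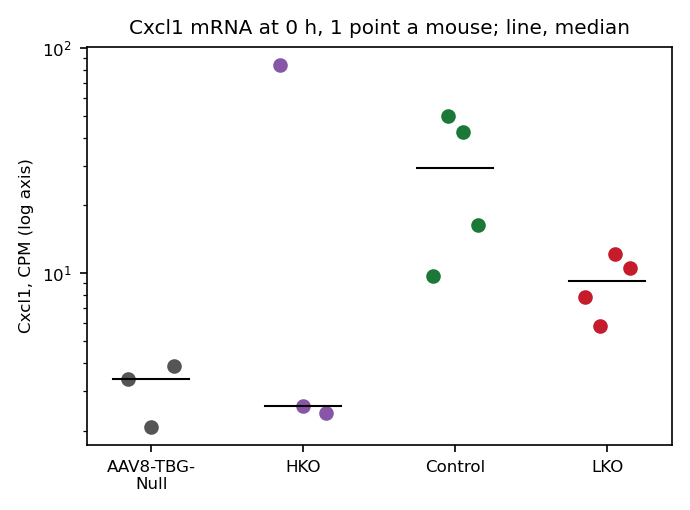
*Cxcl1* level in each of the 14 single mice at 0 h, in CPM on a log axis, with the median of each group as a line. HKO mouse 1 is at 83.9 CPM, above all 13 other mice, and Control mice range from 9.74 to 49.8 CPM.

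None of the 7 genes tested was called in HKO against AAV8-TBG-Null liver by edgeR or DESeq2, where edgeR called 0.96% of 12397 genes, and 2 of the 7 (*Cxcl1* and *Ccl9*) had an unadjusted p under 0.05, as did 1598 (12.9%) of all genes. *Ccl9* was at 44.6, 46.4 and 40.4 CPM in AAV8-TBG-Null mice and 21.3, 22.7 and 39.3 CPM in HKO mice. The groups did not overlap, as in 17.9% of all genes tested, and the log2 fold change was −0.65 (SE 0.21, adjusted p = 0.23 by edgeR's quasi-likelihood test). Without HKO mouse 3, the closest to the controls, it was −0.99 (adjusted p = 0.00828) and was called. *Ccl6* was likewise apart, at 4.33, 5.54 and 3.82 CPM against 6.25, 6.15 and 6.03 CPM (log2 fold change 0.44, SE 0.21, adjusted p = 0.436). *Cxcl10* (0.99), *Cxcl9* (0.77), *Cxcl16* (0.56) and *Cxcl12* (0.00) had adjusted p-values of 0.442, 0.61, 0.429 and 0.994. The *Cxcl1* effects in the HKO and LKO cohorts were not tested against each other, since the cohorts also differ in the virus and in the age at deletion.

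Genes that induce, bind or process these chemokines are given by list, to be read against the 17%, 14.1%, 10% and 11% of all genes that rose at 12, 24, 48 and 72 h. Of 21 cytokine and NF-kB feedback genes, 16 were tested and 10 rose at 12 h, among them *Nfkbiz*, which encodes a nuclear cofactor of NF-kB (log2 fold change 2.32, adjusted p = 1.62e-06), and the feedback inhibitor genes *Socs3* (1.71, adjusted p = 0.00789) and *Tnfaip3* (1.66, adjusted p = 0.000319) by edgeR's quasi-likelihood test. The number that rose was 4, 5, 3 and 0 of 16 at 24, 48, 72 and 96 h, with 1 lower at 24 h (*Nfkbia*, −0.62) and 1 at 72 h (*Rela*, −0.63, after a rise of 0.62 at 12 h). *Nfkbiz* was at 9.21 to 16.7 CPM in Control mice and 8.02 to 13.9 CPM in LKO mice, and at 66.9 and 49.9 CPM in the Control and LKO pools at 12 h. The list median of LKO over Control at 12 to 96 h was −0.40 (log2), beside −0.01 for all genes. All 16 lay below 0 and 9 had an unadjusted p under 0.05, as did 17.9% of all genes, and none was called by edgeR. Before APAP, 11 of 16 lay below 0 in LKO against Control (median −0.13). The LKO effect over 12 to 96 h minus that at 0 h was below 0 for 10 of 16 (median −0.16), and none was called.

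Of 23 chemokine receptor genes, 14 were tested after APAP. *Ccr1*, which encodes the receptor of the *Ccl6* and *Ccl9* products, rose at 12, 24, 48 and 72 h (log2 fold change 2.95, 2.93, 3.46 and 4.08, adjusted p = 0.000537, 0.000753, 0.000174 and 1.38e-05 by edgeR's quasi-likelihood test). *Ccr2*, which encodes the receptor of the *Ccl2* and *Ccl7* products, rose at 24, 48, 72 and 96 h (1.94, 2.70, 3.64 and 1.65, adjusted p = 0.000329, 1.09e-05, 1.32e-07 and 0.0349). *Ackr2*, which encodes a scavenger of CC chemokines, rose at 12 h (2.28) and fell at 24 h (−1.37). In all, 2, 2, 4, 5 and 1 of the 14 rose and 1, 1, 0, 0 and 0 fell at 12, 24, 48, 72 and 96 h, so that the share that rose was near that of all genes at 12 and 24 h. *Cx3cr1*, the fractalkine receptor gene, rose at 48 and 72 h (log2 fold change 1.99 and 2.65), and *Ccr3*, the eotaxin receptor gene, fell at 12 h (−2.66). None of the receptors was called in LKO against Control.

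Among 27 other chemokine genes, 14 were tested after APAP, and 2, 4, 6, 4 and 0 rose at 12, 24, 48, 72 and 96 h, the first near the share of all genes. *Pf4*, a platelet and macrophage chemokine gene, rose at 12, 24, 48 and 72 h (log2 fold change 2.33, 3.07, 3.72 and 4.08 by edgeR's quasi-likelihood test). *Ccl3* (3.63 at 48 h and 4.52 at 72 h) and *Ccl4* (2.6, 3.04 and 4.54 at 24, 48 and 72 h) were called as higher at these times, *Cxcl14* rose from 12 to 72 h (1.51, 1.97, 2.05 and 2.19), *Ccl27a* fell at 12 h (−1.79) and *Cxcl13* fell at 72 h (−2.67). *Cxcl3*, which encodes another CXCR2 ligand, had 0 reads in all 14 mice at 0 h and was read only in 4 pools, with 16, 32 and 84 reads in the Control pools at 12, 24 and 48 h and 108 in the LKO pool at 24 h. It was called at 24 and 48 h (adjusted p = 0.00492 and 0.0297).

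Of 11 genes for chemokine processing and binding, 9 were tested, and 3, 2, 2, 3 and 0 rose and 1, 1, 0, 1 and 0 fell at 12 to 96 h. *Mmp12*, a macrophage protease that cleaves CXC chemokines, rose by 4.14, 3.93, 5.81 and 7.48 on the log2 scale at 12 to 72 h, and *Mmp8*, a neutrophil collagenase, by 3.44, 3.67, 3.69 and 4.03. *Dpp4*, whose protease product inactivates CXCL12 and CXCL10, was lower at 12 h (−0.80) and 24 h (−0.89), and the syndecan gene *Sdc4* at 72 h (−0.76). *Sdc1* rose at 12 h (0.86) and *Mmp2* at 72 h (1.69). Of 18 interferon-response genes, all were tested, and 3, 3, 6, 4 and 0 rose, near the share of all genes at 12 and 24 h, with 2 lower at 12 h (among them *Igtp*, −1.84). *Rsad2* rose at 12, 24 and 48 h (log2 fold change 1.83, 1.35 and 1.30). *Cd274* (2.52) rose at 12 h, *Irf8* at 12 h (0.66) and 72 h (1.18), *Isg15* from 24 to 72 h (1.32, 0.93 and 1.05), *Ifit3* (0.99) at 24 h, *Gbp3* (1.18) at 48 h, *Oas1a* at 48 h (1.60) and 72 h (1.67), and *Gbp2* (1.42) at 72 h, all by edgeR's quasi-likelihood test. In HKO against AAV8-TBG-Null liver, *Irf1*, which encodes an inducer of interferon targets, rose (0.79, SE 0.14, adjusted p = 0.0348), and all 18 lay above 0 with a median of 0.58 (log2), beside 0.01 for all genes, and 5 of 18 had an unadjusted p under 0.05 (12.9% of all genes, with 0.96% called). In LKO against Control at 0 h, 16 of 18 lay above 0 with a median of 0.27, beside 0.00 for all genes, 3 of 18 had an unadjusted p under 0.05 (2.83% of all genes), and none was called.

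Summed levels of leukocyte markers are given beside the chemokines. The sum of 11 neutrophil markers was 2.76 to 12.4 CPM in the 8 mice, 17.8, 14.6, 33.7, 28.5 and 9.13 CPM in the Control pools and 18.6, 33.3, 10.7, 9.26 and 2.62 CPM in the LKO pools at 12, 24, 48, 72 and 96 h. At 12 h, when the *Cxcl1* and *Cxcl2* levels of the pools differed 7.46- and 5.25-fold, this sum was near-equal in the 2 pools, and at 24 h it was higher in the LKO pool, whereas the Control pool was higher at 48, 72 and 96 h. All 6 neutrophil markers tested lay below 0 in LKO against Control over 12 to 96 h (median log2 fold change −0.88, beside −0.01 for all genes), as did *Cxcl1* and *Cxcl2*, and none of the 6 was called or had an unadjusted p under 0.05. In the same comparison all 5 cholangiocyte markers tested (median −1.01) and 10 of 12 monocyte and macrophage markers (median −0.32) also lay below 0, 1 and 2 of them with an unadjusted p under 0.05, and none was called. The sum of 12 monocyte and macrophage markers was 99.5 to 199 CPM in the mice, 138, 129, 355, 734 and 269 CPM in the Control pools and 94.0, 132, 265, 649 and 117 CPM in the LKO pools. This sum, which *Lyz2*, *Spp1* and *Csf1r* lead, was highest at 72 h in both genotypes, as was *Ccl6*. Its 12 and 24 h pools were not above the mice, although 3 and 7 of the 12 markers rose and 0 and 2 fell at these times by edgeR's quasi-likelihood test (median log2 fold change 0.27 and 1.40), *Cd68* by 2.04 and 2.01. The 2 that fell at 24 h were *Adgre1* (log2 fold change −1.3) and *Csf1r* (−1.08). At 48 and 72 h 10 and 9 of the 12 markers rose. For 6 Kupffer cell markers the sum was 118 to 315 CPM in the mice, 74.0 to 335 CPM in the Control pools and 94.8 to 456 CPM in the LKO pools. Against 0 h, 5 of these 6 lay below 0 at 12 h and at 24 h (median log2 fold change −0.46 and −0.90). At these times 2 and 2 were called lower and 0 and 1 higher. At 48 and 72 h 5 of the 6 lay above 0 (median 0.25 and 0.49), with 1 and 2 called higher and 0 lower. No marker of these 3 lists was at 0 in all 24 libraries, and the part of these cells in the chemokine results was not tested.

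**Figure D5:**
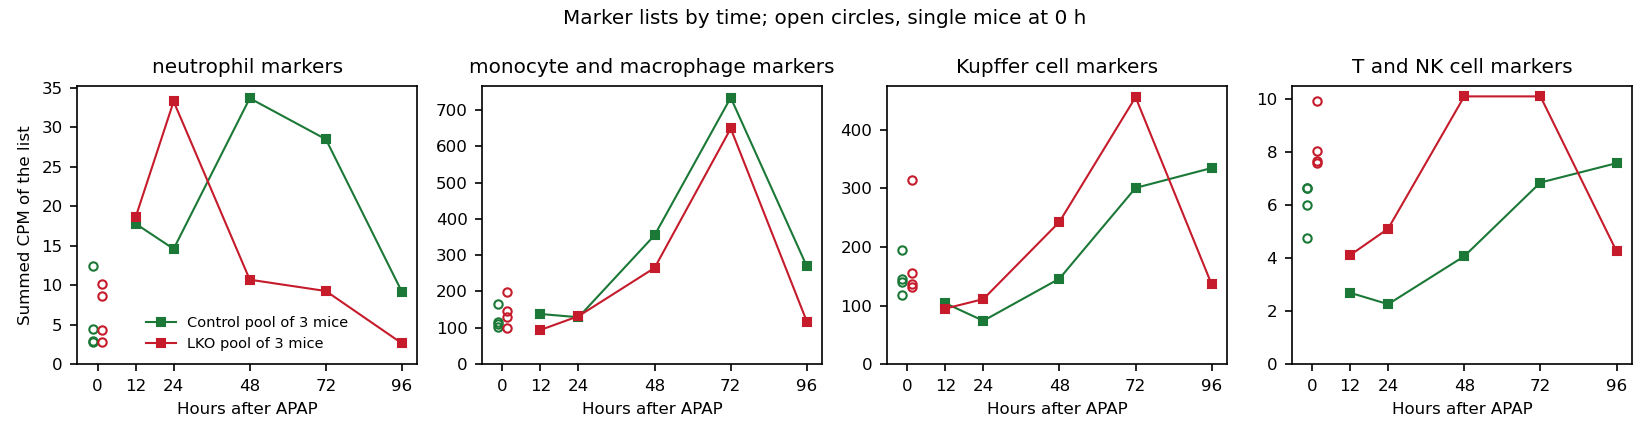
Summed CPM of 4 marker lists against hours after APAP in Control (green) and LKO (red) liver, with single mice at 0 h as open circles and pools of 3 mice as squares. Neutrophil markers are highest at 48 h in Control (33.7 CPM) and 24 h in LKO (33.3 CPM), and monocyte and macrophage markers at 72 h in both.

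Sums for the other cell types were as follows. Sinusoidal endothelial markers (7 genes) were at 237 to 296 CPM in the mice, 186 to 241 CPM in the Control pools and 188 to 248 CPM in the LKO pools. Stellate cell and fibroblast markers (9 genes) were at 231 to 395 CPM in the mice and reached 1110 CPM (Control) and 865 CPM (LKO) at 72 h. T and NK cell markers (10 genes) were at 4.75 to 9.91 CPM in the mice, 2.26 to 7.58 CPM in the Control pools and 4.11 to 10.1 CPM in the LKO pools, and cholangiocyte markers (6 genes) at 37.5 to 76.4, 21.7 to 217 and 21.8 to 86.8 CPM. *Spp1* leads the cholangiocyte sum and is also a leading gene of the monocyte and macrophage sum, so these sums are not independent.

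Likeness over the 18 libraries of the LKO cohort is described by Pearson's r of log2 CPM with no test, since the libraries share their time points and their scaling. *Ccl2* and *Ccl7* were the most alike pair (r = 0.922), and *Cxcl1*, *Cxcl2*, *Ccl2* and *Ccl7* had r of 0.769 to 0.922 with each other. *Cxcl16* and *Ccl9* had an r of 0.839, and *Cxcl12* ran against *Cxcl1* (r = −0.757) and *Cxcl2* (r = −0.779). The *Cxcl9* and *Cxcl10* neighbours had an r of −0.145 and the *Ccl6* and *Ccl9* neighbours 0.237.

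Among genes with a mean log2 CPM of at least 0, genes with a high r to each chemokine over these 18 libraries were as follows. *Cxcl2* was closest to *Tnfrsf12a* (r = 0.972), *Enc1* (0.969) and *Smox* (0.961), and genes close to *Cxcl1* were *Hprt* (0.918) and *Osgin2* (0.917). Genes close to *Ccl2* were *Tmem43* (0.921) and *Plaur* (0.92), and *Ccl7* was closest to *Capn2* (0.929), *Tpm4* (0.926) and *Ccl2* (0.922). *Ccl6* was closest to the myeloid genes *Slc11a1* (0.918), *Tlr13* (0.904) and *Ms4a6d* (0.901), and *Cxcl16* to the immunoproteasome gene *Psmb9* (0.949), *Aif1* (0.933) and *Brip1os* (0.926). *Cxcl10* was closest to *Tgfbr2* (0.916), *Ptpre* (0.904) and *Tmem87a* (0.895), *Cxcl12* to *Shmt1* (0.927), *Sh3yl1* (0.918) and *Cmtm8* (0.899), *Ccl9* to *Kdelc2* (0.916), *Sep15* (0.915) and *Prelid1* (0.908), and *Cxcl9* to *Cyfip2* (0.864), *Ces1c* (0.825) and *Lpcat2* (0.82).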

How the data were processed

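RNA-seq of 24 whole-liver libraries was analysed. Reads were cleaned by Trimmomatic and mapped by STAR on mm10. The authors deposited STAR's raw gene counts (24411 genes), in 3 columns per library, 1 that disregards strand and 2 stranded. The annotation version is not given in the sources used here. The column that disregards strand was used. The 4 summary entries without a gene entered no total or test; unmapped reads made up 2.63% to 20.6%, multimapping reads 4.69% to 8.06% and reads on no feature 7.30% to 14.7% per library.

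Counts were analysed in R 4.3.3 with edgeR 4.0.16 and limma 3.58.1: filterByExpr, TMM scaling, the quasi-likelihood F-test (2-sided) and Benjamini-Hochberg adjustment over all genes of a comparison, with a call where adjusted p was under 0.05 and the fold at least 1.5. The SE is the log2 fold change over the root of F. CPM values use 1 TMM scaling over the 24 libraries; log2 CPM for time-point differences and r uses the prior count 2 and the 13328 genes that passed the filter in the 18 LKO-cohort libraries. HKO was compared with AAV8-TBG-Null (3 and 3 mice) and LKO with Control at 0 h (4 and 4), LKO with Control over 12 to 96 h with time as a block, and each time with 0 h in 1 fit of the 18 libraries. Some of these tests were tried on counts simulated from fits to these data. The simulation did not model the pooling of mice, and its outcome is not reported here. In the comparisons at 0 h the p-values measure the spread between single mice. For LKO against Control over 12 to 96 h they rest on how the difference varied between time points. In the fits of all 18 libraries, 1 spread is shared by 8 single mice and 10 pools. None of the p-values measures the spread between mice after APAP. A marker or pathway list is described by counts and medians.

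Alternatives were DESeq2 1.42.0, RLE scaling, library size alone, genes with at least 1 count, no fold limit, summed stranded columns, a replicate or no time block, fits of 1 time point, and leaving out each mouse, pool or time point. The 10 genes and the lists were chosen with earlier results of these data known. Named beside the 10 were, per list and comparison, up to 3 called genes with the largest rise and fall, the 3 genes with the highest r, *E2f7* and *E2f8*, and the leading markers; *E2f7* had 2 to 22 counts per mouse at 0 h. The mice with the highest *Cxcl1* in the closing section were singled out after their values were seen. *Ly6g* was not analysed here, and some genes that this rule names are not reported here. The labels give an intravenous and the methods an intraperitoneal virus injection.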

Additional observations from a re-analysis of the deposited data

Results flagged for a closer look

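*Ccl7* stood out within the Control mice and within the LKO mice at 0 h. In each group 1 mouse had reads (0.117 CPM from 2 reads in Control and 0.164 CPM from 3 reads in LKO) and the other 3 had none, so the gap of the highest mouse divided by the range of the group was 1.0 in both, a value that follows whenever all but 1 mouse are at 0. Both values lie at or under the lowest readable level of 3 counts. The check covered 20 combinations of gene and group (10 genes in 2 groups of 4 mice); the limit used passes about 1 in 20 by chance for continuous values, a rate that does not hold for counts at 0.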

How the results depend on the processing

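The number of the 10 genes called was recomputed under 189 combinations of comparison and alternative. It stayed within 1.5 times in 179 and moved in 10. For LKO against Control over 12 to 96 h (2 genes, 74 of all genes), it was 5 with DESeq2 (606 of all genes), 4 with genes of at least 1 count (337), 0 without the time block (0), and 0 to 4 when each time point was left out (9 to 177); library size alone left 42 of all genes. For HKO against AAV8-TBG-Null it was 0 to 1 when each mouse was left out, with *Ccl9* called without HKO mouse 3; of all genes, 54 to 297 were called then, 331 with DESeq2, 255 with at least 1 count and 119 in the main test. When each library was left out it was 4 to 7 at 48 h and 1 to 7 at 72 h after APAP, the lowest without the Control pool of that time (474 of all genes at each, against 2230 and 2244). At 12 h it was 6 to 9 and at 24 h 4 to 6, with as few as 2079 and 1143 of all genes (against 4202 and 3484). At 96 h, where none of the 10 was called under any alternative, 342 of all genes were called with DESeq2, 41 with library size alone and 11 to 110 when each library was left out, against 62. Of all genes, DESeq2 called 3 in LKO against Control at 0 h and 39 in the test of the difference of effects, against 0 in each. The cause of these shifts was not tested. Log2 fold changes of single genes were followed for the 10 genes and for the called list genes picked in each comparison. Over both sets together, 3304 alternatives kept their side of the threshold, 157 lost and 14 gained a call. *Ccl9* at 48 h ranged from −0.14 (without the LKO pool of that time) to 1.38 (without the Control pool) when each library was left out.

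Same-numbered mice did not deviate together (r of −0.031 to 0.198 for AAV8-TBG-Null and HKO and −0.379 to 0.223 for Control and LKO), so the numbers are no pairing. With the replicate block, 0 of the 10 genes were called in each comparison at 0 h, as without it, while the calls over all genes were 263 against 119 in HKO and 0 against 0 in LKO. Depth limits *Ccl7* and *Cxcl2*, whose levels at 0 h lie near 3 counts, and with 1 pool per genotype and time the spread between mice after APAP was not measured.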

Other observations

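Across the 14 single mice at 0 h, the 3 with the highest *Cxcl1* (HKO mouse 1 at 83.9 CPM and Control mice 2 and 3 at 49.8 and 42.2 CPM) also had the 3 highest sums of the 21 cytokine and NF-kB feedback genes (568, 555 and 528 CPM, against 293 to 447 CPM in the other 11 mice). These mice had no APAP. *Nfkbiz* was at 17.8, 16.7 and 16.3 CPM in them and at 8.02 to 13.9 CPM in the other 11 mice. The mice were singled out after their values were seen, and no test was made.

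Levels are given for 2 CXC receptor genes, chosen after their values were seen. *Cxcr2*, the receptor gene of *Cxcl1* and *Cxcl2*, was at 0.211 to 1.71 CPM in the Control pools and 0.169 to 0.869 CPM in the LKO pools, against 0 to 0.924 CPM in the 8 mice at 0 h, with 26 reads or fewer in each. *Cxcr4*, the receptor gene of *Cxcl12*, was highest at 72 h in both genotypes, at 5.66 and 7.26 CPM, against 0.875 to 2.40 CPM in the 8 mice at 0 h.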
